A study of Mus musculus with 8 samples.

Results

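The collagen genes of the mouse were taken as all autosomal protein-coding genes whose symbol is Col, a number, the letter a and a number, such as Col1a1. There were 42 such genes among 20665 autosomal protein-coding genes, and Col4a5 and Col4a6 on chromosome X were no members. CHD4 occupancy was measured by ChIP-seq in dissected, frozen atria, left and right together, whose cell type is labelled as mixed. There were 2 ChIP libraries titled TBX5 KO and 2 titled control, each with its own peak list on build mm10, and 4 input libraries not analysed here on their own. All mice carried floxed Tbx5 alleles. Mice received a virus on postnatal day 2. If the titles and library names are right, it was AAV9:Nppa-Cre in the TBX5 KO mice and AAV9:Nppa-EGFP in the control mice. The titles name the group but no virus. The Nppa sequence drives Cre in atrial cardiomyocytes, so other cells of the atria, fibroblasts included, are not its target. For these libraries the labelled genotype and treatment state the opposite groups, and the treatment text names CHD4 as the deleted gene. Each direction given here therefore depends on the titles. CHD4 peaks do not measure expression, so neither the deletion nor the labelled tissue can be checked with them. The labels do not say whether replicates are separate animals or pools.

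Collagens are secreted or membrane proteins built of chains wound into a triple helix. Fibril-forming collagens, above all types I and III, carry the tensile load of the heart's interstitium and are made mainly by fibroblasts. Type IV forms the network of basement membranes around cardiomyocytes and vessels, and type VI forms beaded filaments beside it. CHD4 is a motor protein that moves nucleosomes as part of NuRD, a complex that also carries histone deacetylases. TBX5 is a transcription factor that keeps atrial cardiomyocytes in their identity.

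A site is a region where peaks of the 4 lists overlap by at least 1 bp, and it belongs to a gene where it overlaps the gene body or 10 kb on either side. The collagen genes held 466 of the 121267 sites, counted once where neighbouring genes share them, and 38 of the 42 genes had at least 1 (90.5%), against 15754 of the 20665 autosomal protein-coding genes (76.2%). Genes were not matched for length in these shares. In the text a control-only site is one called in both control libraries and in neither TBX5 KO library, and a TBX5 KO-only site is the reverse. The level of a site is its pileup, the number of fragments over the summit, divided by the background pileup of the genome in that library. Where a site holds several peaks of a library, the peak of highest −log10 p gives the level. In wide sites the summits compared can therefore lie at different places in different libraries. Both were recovered from the deposited fold and p of each peak, and levels below are on this linear scale. The strongest site of a gene is the one of highest mean −log10 p rank in the 2 control lists. The background pileup was 10.7 and 13.4 in the TBX5 KO libraries and 10.1 and 10.3 in the control libraries, so the libraries with fewer peaks did not have the lower background. The lists held 61173 and 69557 peaks in TBX5 KO and 99924 and 91520 peaks in control.

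The bases before the start of 4 collagen genes are shown as examples of promoters with a peak. No promoter without any peak is among them, so they do not show the CpG contrast given below. A peak lay over the promoter of Col1a2, Col3a1 and Col5a1 in all 4 libraries, and over that of Col8a2 in the control libraries alone. The sequences are from RefSeq, build GRCm38.p6, plus strand, 5′ to 3′, and each ends 1 base before the listed start. They lie at chr6:4505368-4505617 for Col1a2, chr1:45311288-45311537 for Col3a1, chr2:27886175-27886424 for Col5a1 and chr4:126286544-126286793 for Col8a2. Capitals mark AGGTGT (T-box core), GGGCGG (GC box), CCAAT and TATAAA on either strand.
Col1a2: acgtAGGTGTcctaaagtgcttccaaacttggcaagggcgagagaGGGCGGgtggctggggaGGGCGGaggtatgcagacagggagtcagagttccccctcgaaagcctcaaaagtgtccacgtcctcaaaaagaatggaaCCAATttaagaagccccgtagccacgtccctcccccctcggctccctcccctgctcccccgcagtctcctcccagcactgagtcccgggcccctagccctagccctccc
Col3a1: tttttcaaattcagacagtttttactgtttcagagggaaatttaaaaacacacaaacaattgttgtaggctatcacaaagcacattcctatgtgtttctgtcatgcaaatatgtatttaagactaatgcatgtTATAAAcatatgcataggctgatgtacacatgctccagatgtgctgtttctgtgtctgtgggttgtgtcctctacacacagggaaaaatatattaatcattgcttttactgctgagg
Col5a1: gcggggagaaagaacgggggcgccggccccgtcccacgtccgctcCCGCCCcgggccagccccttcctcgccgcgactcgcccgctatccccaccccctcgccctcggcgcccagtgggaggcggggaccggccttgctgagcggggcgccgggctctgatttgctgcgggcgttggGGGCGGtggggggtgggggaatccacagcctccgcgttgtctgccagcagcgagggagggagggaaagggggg
Col8a2: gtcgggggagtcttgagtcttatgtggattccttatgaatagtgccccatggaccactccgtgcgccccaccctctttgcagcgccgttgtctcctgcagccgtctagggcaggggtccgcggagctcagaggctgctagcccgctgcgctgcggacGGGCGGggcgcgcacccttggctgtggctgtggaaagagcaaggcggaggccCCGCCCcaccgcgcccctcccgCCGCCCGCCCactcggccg
The Col3a1 sequence holds a TATAAA and 0 CpG, whereas that of Col5a1 holds 28 CpG and that of Col8a2 24. Only the Col1a2 sequence among the 4 holds AGGTGT.

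CHD4 was called at most collagen genes in both groups, at fewer sites in TBX5 KO than in control. Collagen sites numbered 216 and 253 in the TBX5 KO libraries, against 367 and 327 in the control libraries. The means were 234.5 ± 26.2 in TBX5 KO and 347 ± 28.3 in control (SD, n = 2 each), a ratio of 0.676, and the groups did not overlap. By an exact permutation test, two-sided, p was 0.333, the smallest that 2 libraries against 2 allow. Over the regions of all autosomal protein-coding genes the same ratio was 0.623. With each list cut to its 61173 strongest peaks the ratio at collagen genes was 0.971, and 0.923 over all gene regions. The cut removes more peaks from the control lists than from the TBX5 KO lists, which in itself brings the counts closer. The collagen regions held 48.2 sites in both control libraries per Mb, against 43.2 per Mb over all gene regions. Of the 38 genes with sites, 28 had fewer in each TBX5 KO library than in each control library, against 42.2% of all genes with a site. That share depends on how many sites a gene holds, for which it was not matched.

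Of the 275 collagen sites in both control libraries, 164 were also called in both TBX5 KO libraries, 52 in 1 of them and 59 in neither. The control-only share was thus 21.5% (95% Wilson interval 17.0% to 26.7%, counting error only), and the background over all gene regions was 24.2%. The share called in all 4 libraries was 59.6%, with a background of 57.3%. Both shares lay near the background. Of 175 collagen sites in both TBX5 KO libraries, 4 were TBX5 KO-only (2.29%, 0.892% to 5.73%), against 1.76% over all gene regions. The position of the collagen share relative to the background depended on the threshold: at −log10 q of at least 5 it was 30.4% against 27.0%, and in lists of equal length 14.9% against 13.4%. Without control replicate 2 the control-only share was 36.5% and without TBX5 KO replicate 2 it was 34.5%, since fewer libraries meet a pattern more often, against 40.9% and 36.7% over all gene regions. The TBX5 KO-only share was 4.97% and 4.37% without control replicates 1 and 2, and 12.2% and 9.17% without TBX5 KO replicates 1 and 2. Over all gene regions these shares were 4.88%, 3.23%, 11.6% and 9.38% in the same order.

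**Figure D1:**
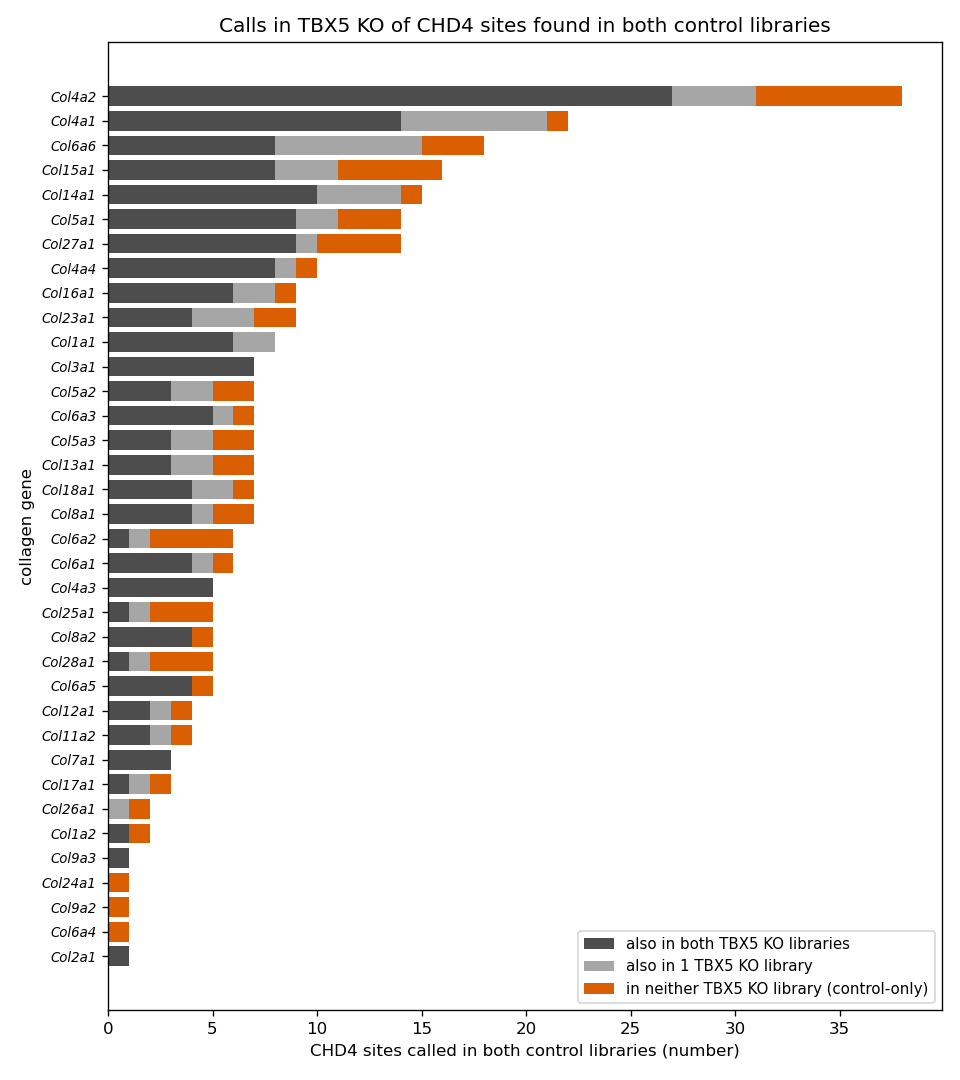
Number of CHD4 sites called in both control libraries at each of the 36 collagen genes that had one, split by how many TBX5 KO libraries also had a peak. Bars are counts of sites, and sites of neighbouring genes appear under both. Col4a2 has the longest bar with 38 sites, Col3a1 and Col1a1 have no control-only part, and at Col6a2 the control-only part is 4 of 6 sites.

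The genes of types I and III differed in how much CHD4 they carried. At Col3a1, which encodes the chain of type III collagen, all 7 sites found in both controls were also called in both TBX5 KO libraries (control-only Wilson interval 0% to 35.4%). They lay between the region upstream of the start and the region beyond the end of the gene. The strongest, upstream at chromosome 1, 45303944 to 45305060, had levels of 4.30 and 4.85 in TBX5 KO, against 6.23 and 7.11 in control. The site over the start had levels of 3.37 and 4.33 in TBX5 KO and 5.04 and 5.06 in control. At the site 2263 bp into the gene the levels were 3.37 and 3.73 in TBX5 KO, against 4.65 and 7.40 in control. Without control replicate 1, 3 sites of Col3a1 met the control-only pattern, and without control replicate 2 there was 1. Each of the 7 sites was lower in both TBX5 KO libraries than in both control libraries, so these sites kept their calls at a lower level, with a median ratio of 0.686. The same held at 88.6% of sites called in all 4 over all gene regions, where the median ratio was 0.644.

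Col1a1, which encodes the main chain of type I collagen, also had 0 control-only sites, with 6 of 8 called in all 4 libraries and 2 in 1 TBX5 KO library. Its site at chromosome 11, 94935517 to 94940010, which overlaps the lower end of the gene, had levels of 4.12 and 4.40 in TBX5 KO and 6.43 and 5.55 in control. Both TBX5 KO libraries were below both control libraries there, as at 88.6% of sites called in all 4 over all gene regions. Its strongest site, at 94957535 to 94959587, had levels of 6.83 and 5.89 in TBX5 KO and 10.2 and 8.28 in control, and it also lies within 10 kb of Sgca and Hils1. Col1a2, which encodes the partner chain, had 2 sites in both control libraries. The one over its start, whose sequence is given above, had levels of 3.09 and 3.50 in TBX5 KO and 5.64 and 4.28 in control, and the other, upstream of it, was control-only at levels of 3.66 and 3.21 in control. Control-only sites at Col1a1 numbered 2 and 3 without control replicates 1 and 2 and 1 without either TBX5 KO replicate. At Col1a2 they numbered 3 without control replicate 1 and 2 without TBX5 KO replicate 1.

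Type V collagen regulates the diameter of type I fibrils, and the gene of its main chain, Col5a1, had the highest control level over a listed start among the collagens. At chromosome 2, 27885291 to 27887648, the levels were 8.51 and 6.34 in TBX5 KO and 15.1 and 12.4 in control. The groups did not overlap, and the ratio was 0.537. Over all gene regions 88.6% of sites called in all 4 were lower in both TBX5 KO libraries. Of 14 sites at Col5a1 in both control libraries, 3 were control-only and 9 were called in all 4. Col5a2, the gene of a second type V chain, had 2 control-only sites of 7, and its strongest site, at chromosome 1, 45501453 to 45503629, had levels of 4.02 and 3.88 in TBX5 KO, against 6.92 and 7.50 in control. Col27a1, which encodes a fibrillar collagen of cartilage, had 4 control-only sites of 14 and 9 sites in all 4 libraries. Its strongest, at chromosome 4, 63289878 to 63291954, had levels of 4.77 and 4.47 in TBX5 KO, against 10.1 and 8.37 in control. Without control replicate 2 the control-only sites numbered 11 at Col5a1, 5 at Col5a2 and 9 at Col27a1. Without control replicate 1 they numbered 5 at Col5a1 and 5 at Col5a2, and without TBX5 KO replicate 2 they numbered 5 and 4. Over the 11 fibril-forming genes 14 of 65 sites were control-only (21.5%, Wilson 13.3% to 33.0%, background 24.2%). Col2a1, the cartilage type II gene, had a single site, called in all 4.

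Col4a2 and Col4a1 held more CHD4 sites than any other collagen gene, 56 and 44. Per 10 kb of gene and flanks they had 3.58 and 3.27 sites, against 3.80 at the shorter Col1a1. Col4a1 and Col4a2 encode the chains of the most widespread type IV network and lie head to head, starting beside each other on opposite strands. Together they had 90 sites, with 47 and 55 called in the TBX5 KO libraries and 70 and 66 in the control libraries. Of 55 sites in both control libraries 8 were control-only (14.5%, Wilson 7.56% to 26.2%, background 24.2%) and 38 were called in all 4. The site over the shared start, at chromosome 8, 11311218 to 11314405, had levels of 5.05 and 5.89 in TBX5 KO and 9.99 and 7.98 in control. The strongest lay inside Col4a2, from 66449 bp after its start (11379254 to 11386233), with levels of 7.76 and 7.68 in TBX5 KO and 14.2 and 14.7 in control. At Col4a1 the strongest, at 11256728 to 11263290, had 5.14 and 5.22 in TBX5 KO and 10.2 and 11.3 in control. At all 3 sites each TBX5 KO library was below each control library, as at 88.6% of sites called in all 4 over all gene regions. A single control-only site of 22 lay at Col4a1 and 7 of 38 at Col4a2, and those 7 had control levels between 2.18 and 3.51. That order depended on the setting. With each site given to the gene of the nearest end, 5 control-only sites lay at Col4a1 and 3 at Col4a2. At Col4a1 they numbered 9 and 5 without control replicates 1 and 2, and 2 and 8 without TBX5 KO replicates 1 and 2. At Col4a2 they numbered 18 without control replicate 2. This pair supplied 55 of the 275 collagen sites, and without it the control-only share of the family was 23.2%.

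**Figure D2:**
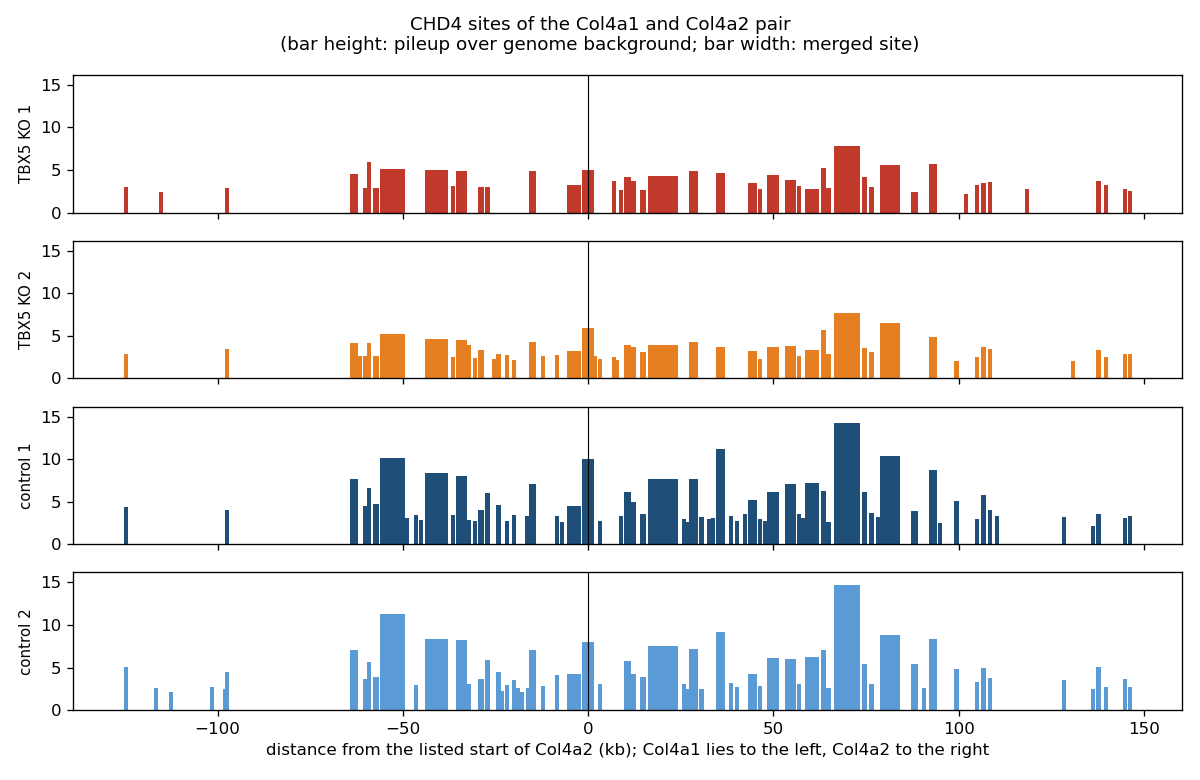
CHD4 sites of the Col4a1 and Col4a2 pair in the 2 TBX5 KO and 2 control libraries, by distance in kb from the listed start of Col4a2. Bar height is the pileup over the genome background, and bars span the merged site or a minimum width. The tall site inside Col4a2 reaches 7.76 and 7.68 in TBX5 KO and 14.2 and 14.7 in control, and many short control bars have no TBX5 KO counterpart.

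Col4a3 and Col4a4, the head-to-head genes of the type IV network of kidney and lung, departed from this pattern in their number of calls. Col4a3 had 11 and 13 sites in the TBX5 KO libraries, against 7 and 5 in the control libraries. It was the one collagen gene with more sites in each TBX5 KO library than in each control library, which 0.927% of all genes with a site had. Of its 15 sites, 6 were called in a single library, always a TBX5 KO library, at low levels between 2.16 and 2.91. Each of its 5 sites shared by both controls was called in both TBX5 KO libraries too. At 4 of these 5 both TBX5 KO libraries were below both control libraries, and their median ratio over the 5 was 0.816. A further 2 sites of Col4a3 were TBX5 KO-only. Those 2 were weak. At chromosome 1, 82627377 to 82628154, the levels were 2.71 and 3.06 in TBX5 KO, and at 82648060 to 82648900 they were 2.90 and 2.76. Neither had a control peak, which leaves their control level unknown but below the threshold of the list. The site over the shared start (82585934 to 82587737) had levels of 4.02 and 5.29 in TBX5 KO and 5.54 and 6.13 in control. A site inside Col4a4, within 10 kb of Col4a3 (82577237 to 82578986), had levels of 8.14 and 7.46 in TBX5 KO and 7.42 and 8.18 in control, so the groups overlapped. At 82554231 to 82555395 in Col4a4 the levels were 5.14 and 4.10 in TBX5 KO and 4.06 and 3.89 in control. The strongest site given to Col4a3, at 82724299 to 82725787, is within 10 kb of Mff, a gene of mitochondrial fission, and had 7.48 and 6.34 in TBX5 KO and 13.8 and 10.6 in control. The pair's median ratio over its 11 sites in all 4 libraries was 0.818, against 0.679 over the 38 such sites of Col4a1 and Col4a2. Col4a3 had 0 control-only sites whichever library was left out, and 1 at −log10 q of at least 5, while Col4a4 had 2 without TBX5 KO replicate 2, against 1 with all libraries. Over the 4 type IV genes 9 of 68 sites were control-only (13.2%, Wilson 7.12% to 23.3%), against a background of 24.2%. The interval covers counting error only, and the difference was not tested.

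Type VI collagen genes ranged widely. Col6a1 and Col6a2 encode partner chains from neighbouring positions on chromosome 10. At Col6a2, 4 of 6 sites in both control libraries were control-only. These 4 lie between 26392 and 36781 bp after the listed start, from the far end of the gene to the neighbouring Ftcd. The site at 76593538 to 76594424 lies between the 2 genes. Within the gene body alone 1 control-only site was counted at Col6a2, and 1 was found in lists of equal length. The site over the start of Col6a2 (76622917 to 76624121) was called in all 4, with levels of 6.45 and 5.37 in TBX5 KO and 9.99 and 8.28 in control. At Col6a1, 1 of 6 was control-only and 4 had a call in each library, 3 of them upstream of the start. Its strongest site, upstream of the start at 76729672 to 76734103, had levels of 5.33 and 4.03 in TBX5 KO, against 7.52 and 6.91 in control. Col6a3, the gene of the third classical chain, had 1 control-only site of 7 and 5 in all 4. Its strongest site, at chromosome 1, 90757155 to 90758918, had 4.86 and 3.65 in TBX5 KO and 6.13 and 7.59 in control. Col6a6, which encodes a later described chain, had 18 sites in both control libraries, of which 8 were called in all 4, 7 in 1 TBX5 KO library and 3 in neither. Its strongest, at chromosome 9, 105696221 to 105699125, in the region of Pik3r4 as well, had levels of 4.40 and 4.77 in TBX5 KO and 8.21 and 7.89 in control. Over the 6 genes 11 of 43 sites were control-only (25.6%, Wilson 14.9% to 40.2%, background 24.2%). Without control replicate 2 there were 8 control-only sites at Col6a6, 2 at Col6a3 and 2 at Col6a1, and without control replicate 1 there were 5 at Col6a6 and 3 at Col6a3. Without TBX5 KO replicate 1 there were 7 at Col6a6, and without TBX5 KO replicate 2 there were 6 at Col6a6, 2 at Col6a3 and 2 at Col6a1.

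The multiplexins, whose C-terminal ends are cleaved to endostatin-like fragments, had 6 of 23 control-only sites (26.1%, 12.5% to 46.5%, background 24.2%). Col15a1, which encodes the type XV chain of the muscle and vessel basement membrane zone, had 5 of them, and 13 without control replicate 2. Its control-only sites had control levels between 2.73 and 5.14. Its strongest site, 42563 bp after the listed start (chromosome 4, 47250575 to 47253183), kept its calls with levels of 4.96 and 4.77 in TBX5 KO and 11.4 and 9.93 in control. The wide site at 47230540 to 47238001 had 5.99 and 6.26 in TBX5 KO and 9.99 and 9.74 in control. Col18a1, the gene of the chain that yields endostatin, had 1 control-only site of 7 and 4 in all 4. There were 2 control-only sites without control replicate 1 and 3 without TBX5 KO replicate 2. At its strongest site by rank, 77097351 to 77099343 on chromosome 10, levels were 3.74 and 3.65 in TBX5 KO and 4.75 and 4.48 in control. A site at 77130458 to 77131217 had a higher mean control level, with 4.21 and 3.36 in TBX5 KO and 6.92 and 4.19 in control.

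**Figure D3:**
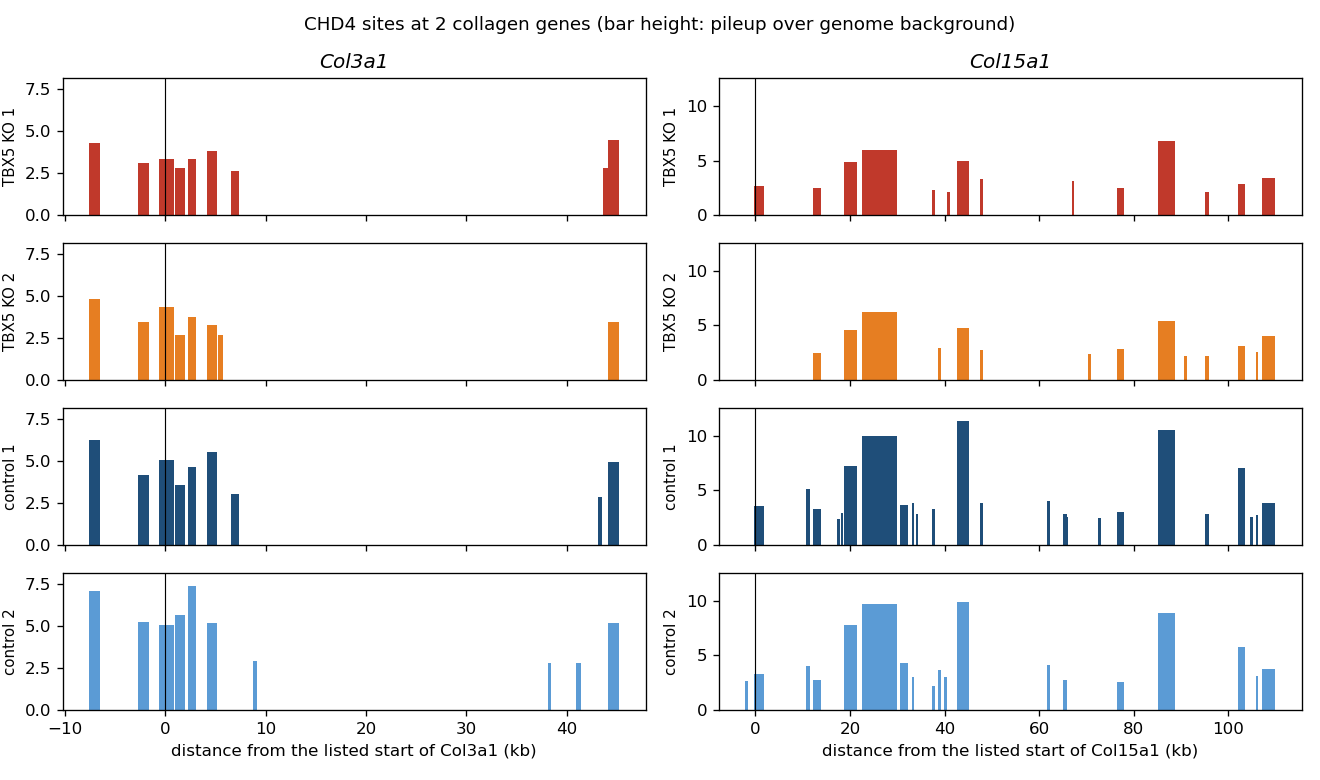
CHD4 sites at Col3a1 and Col15a1 in the 2 TBX5 KO and 2 control libraries, by distance in kb from each gene's listed start. Bar height is the pileup over the genome background, and bars span the merged site or a minimum width. Of the 14 sites of Col3a1, 7 stand in each library, while 5 sites of Col15a1 stand in both control libraries alone.

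Of the fibril-associated collagens, which attach to fibril surfaces, 4 of 30 sites were control-only (13.3%, 5.31% to 29.7%, background 24.2%). Col14a1, which encodes a fibril-associated chain, supplied 15 of these sites with 1 control-only, 4 in 1 TBX5 KO library and 10 in all 4. The control-only count rested on each library: it was 6 and 3 without control replicates 1 and 2, 3 and 4 without TBX5 KO replicates 1 and 2, and 5 at −log10 q of at least 3. Its strongest site by rank, at chromosome 15, 55510780 to 55511788, had levels of 5.80 and 3.43 in TBX5 KO and 7.62 and 7.50 in control. The site at its lower end (chromosome 15, 55306162 to 55309451) had levels of 3.55 and 4.40 in TBX5 KO and 6.23 and 5.74 in control. Col14a1 also had a TBX5 KO-only site, at 55424985 to 55425423, with levels of 2.15 and 2.24 in TBX5 KO. With those of Col4a3 and 1 inside Col4a2 (chromosome 8, 11319519 to 11319884, at levels of 3.65 and 2.46), this completes the 4 TBX5 KO-only sites of the family.

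The transmembrane collagen genes Col13a1, Col17a1, Col23a1 and Col25a1 had 8 of 24 control-only sites (33.3%, 18.0% to 53.3%), an interval that holds the background of 24.2%. Col25a1, a collagen gene best known from neurons and motor innervation of muscle, had 3 control-only of 5, and its site over the start, at chromosome 3, 130180113 to 130181075, had levels of 2.81 and 3.88 in TBX5 KO and 5.84 and 5.65 in control. Without control replicate 2 Col25a1 had 7 control-only sites. Col28a1 also had 3 of 5, and Col26a1, grouped with it as outside the other classes, had 1 of 2. At Col28a1 the one site called in all 4, at chromosome 6, 8105511 to 8106852, had the lowest ratio of the family, 0.380, with levels of 3.27 and 3.95 in TBX5 KO and 9.79 and 9.15 in control. The groups did not overlap there, and the site is named because its ratio was the lowest. Over all gene regions the lower quartile of this ratio was 0.557 and its minimum 0.183. The short chain network genes Col8a1, Col8a2 and Col10a1 had 3 of 12 control-only sites. Col7a1, the gene of anchoring fibrils in skin, had 5 sites. The 3 of them that both controls share were also called in each TBX5 KO library, and the other 2 in 1 control library each. The highest control level of all collagen sites was given to Col7a1, but the site (chromosome 9, 108989548 to 108993389) lies beyond the end of the gene, within 10 kb of Pfkfb4 and Ucn2. It had 7.58 and 9.10 in TBX5 KO and 19.1 and 18.2 in control.

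Some collagen genes carried no CHD4 peak or almost none. Col9a1, Col10a1, Col11a1 and Col19a1 had no site in any library. Col20a1 and Col22a1 had 2 and 1 sites, none of them in both control libraries. Col9a2, Col9a3 and Col2a1, of cartilage, had 1 site each in both control libraries. Those of Col9a2 and Col9a3 lie in the region of other genes, Zmpste24 for Col9a2 and Mrgbp and Ogfr for Col9a3. The site of Col9a2 was control-only, at levels of 4.85 and 6.23 in control. A gene with no peak may still hold CHD4 below the threshold of the lists.

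At the 164 collagen sites called in all 4 libraries the level was lower in TBX5 KO at most sites. The median level was 3.55 and 3.54 in the TBX5 KO libraries and 5.34 and 5.16 in the control libraries. The median over sites of the TBX5 KO to control ratio was 0.691, with quartiles of 0.614 and 0.818 and a full range of 0.380 to 1.16. Between single libraries the median ratio was 0.669 to 0.722, and between replicates it was 1.02 for TBX5 KO 1 over 2 and 1.07 for control 1 over 2, so the difference between groups exceeded that between replicates. Both TBX5 KO libraries were below both control libraries at 137 of the 164 sites (83.5%), against 88.6% of the sites over all gene regions, where the median ratio was 0.644. Both were above at 2 sites (1.22%, background 0.569%), the Col4a4 site at 82554231 given above and a weak site inside Col4a2 at 11377148 to 11378289, with levels of 2.90 and 2.83 in TBX5 KO and 2.57 and 2.63 in control. In each of the 23 collagen genes with at least 3 such sites the median ratio was below 1, from 0.498 at Col13a1 to 0.834 at Col4a4. This was not counted over all genes. Single sites in all 4 libraries had a ratio above 1 in 4.88% of cases at collagen genes and 2.63% over all gene regions. The ratio counts only sites that passed the threshold in all 4 libraries, which leaves out sites whose TBX5 KO level dropped below it.

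**Figure D4:**
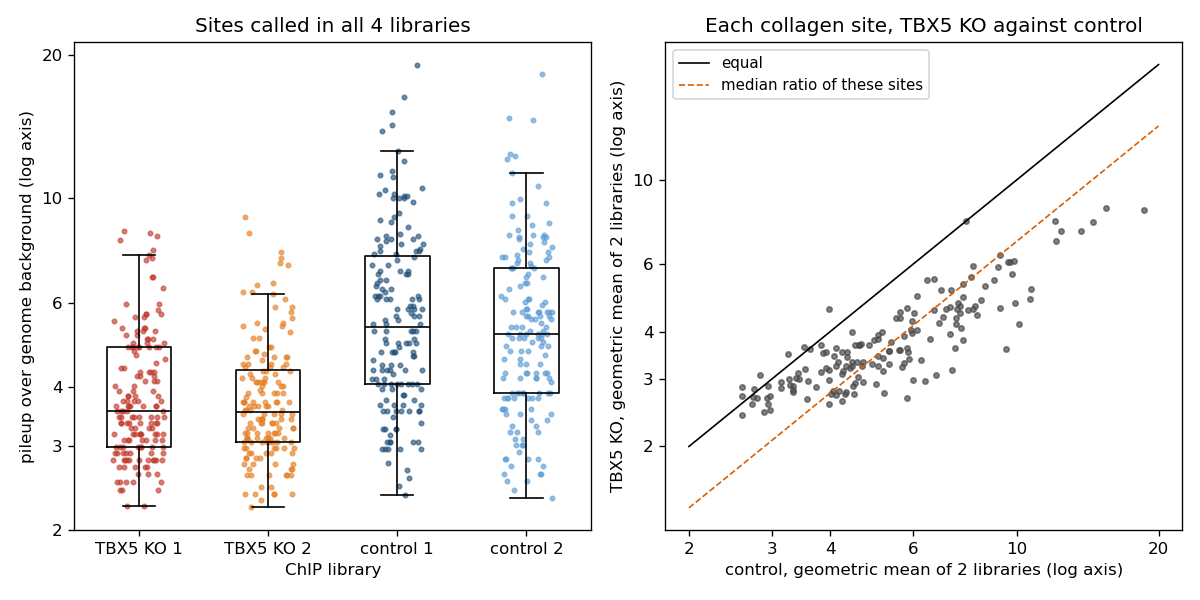
Left, pileup over genome background (log axis) of the 164 collagen sites called in all 4 libraries, with median, quartiles and whiskers to 1.5 times the interquartile range. Right, the same sites as geometric means of the 2 TBX5 KO against the 2 control libraries, with lines for equality and for the median ratio of 0.691. Medians are 3.55 and 3.54 in TBX5 KO and 5.34 and 5.16 in control, and most points lie below the line of equality.

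Control-only collagen sites were weak in control, as control-only sites were over all gene regions. Their median level was 3.17 and 3.21 in the control libraries, against 5.34 and 5.16 at the collagen sites called in all 4. Over all gene regions these medians were 3.26 and 3.12, against 6.43 and 6.04. Among sites below the middle control rank, by −log10 p within each list, 53 of 152 collagen sites were control-only (34.9%, against 42.9% over all gene regions). Above it 6 of 123 were (4.88%, against 5.80%). The median ratio at sites called in all 4 was 0.864 below and 0.636 above that rank, against 0.814 and 0.603 over all gene regions. Control strength sets the rank and also divides the ratio, and weak sites must still pass the threshold in TBX5 KO. These ratios therefore cannot tell whether the difference between groups depends on the strength of a site, which was not tested. By place, 5 of 43 collagen sites within 1 kb of a gene end were control-only (11.6%, against 7.07%), 48 of 204 inside genes (23.5%, against 30.9%) and 6 of 28 outside genes (21.4%, against 24.3%). Collagen sites lay less at gene ends than sites in general, 15.6% of those in both control libraries against 25.3%.

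Most collagen genes with a promoter peak in both control libraries kept it in both TBX5 KO libraries, as most genes did. Of the 42 genes, 33 matched a promoter of the RefSeq table, a window of 250 bases before to 50 after a start, and 36 windows were listed for them. A peak overlapped a window of 16 genes in all 4 libraries (48.5%, against 55.1% of all genes in the table) and of 12 genes in no library. Counted by library, 17 and 18 of the 33 genes had a promoter peak in TBX5 KO and 20 and 19 in control. Of the 19 genes with one in both control libraries, 16 also had one in both TBX5 KO libraries. Among all genes in the table this held for 9067 of 9547. The collagen share was the lower, on few genes, and the difference was not tested. One gene of the 19 with a promoter peak in both control libraries had none in TBX5 KO (5.26%, background 1.6%). This was Col8a2, which encodes a network-forming chain of basement membranes, and its site (126286540 to 126287037) had levels of 3.36 and 3.41 in control. The median number of CpG per window was 16 where a peak lay in all 4 libraries and 6 where none did, against 22 and 3 over all promoters. By letters, 3 of the 36 windows held AGGTGT (8.33%, against 12.7% of 20085 windows), those of Col1a2, Col24a1 and Col6a4, and 21 held GGGCGG (58.3%, against 47.0%). CCAAT was in 12 (33.3%, against 38.1%) and TATAAA in 5 (13.9%, against 12.7%), on either strand in each case.

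Genes that make, process, bind and degrade collagen were listed beside the family, and 52 of the 53 listed were in the gene table. Of their 296 sites in both control libraries 46 were control-only (15.5%, Wilson 11.9% to 20.1%), against the background of 24.2%, and 193 were called in all 4. The list was not matched to the background for the strength or place of its sites, with which this share varies. The genes of chain modification and folding, such as prolyl and lysyl hydroxylases, had 16 of 90, and those of propeptide cleavage 9 of 60. Crosslinking enzymes of the lysyl oxidase family had 0 control-only sites of 18 (Wilson 0% to 17.6%). Fibril regulators such as Dcn and Lum had 3 of 41, collagen receptors 9 of 45, degradation enzymes 5 of 19 and secretion genes 4 of 23. The median ratio over the sites of these genes in all 4 libraries was 0.659.

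Integrin and laminin genes, the neighbours of collagens in the matrix, had 57 of 299 control-only sites (19.1%, Wilson 15.0% to 23.9%), and fibroblast marker genes 8 of 39 (20.5%, 10.8% to 35.5%). Endothelial markers had 8 of 48 and smooth muscle and pericyte markers 2 of 13. A shorter list of atrial cardiomyocyte markers had 7 of 22 (31.8%, Wilson 16.4% to 52.7%), an interval that holds the background of 24.2%. A longer list of 10 atrial cardiomyocyte genes had 118 of 149 (79.2%, 72.0% to 84.9%), and its 18 sites in all 4 libraries had a median ratio of 0.452. It held Myl7, Nppa, Sln, Myl4, Gja5, Bmp10, Ryr2, Kcnj3, Sbk2 and Fgf12. The first 4 of these are also in the shorter list, which adds Tnnt2. Those genes were chosen with earlier results of these data known, so their share is a description and not support. The differences between lists were not tested, since sites of a library are not replicates. The atria were measured whole, so the share of each cell type in the chromatin and the CHD4 level per cell cannot be told apart.

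**Figure D5:**
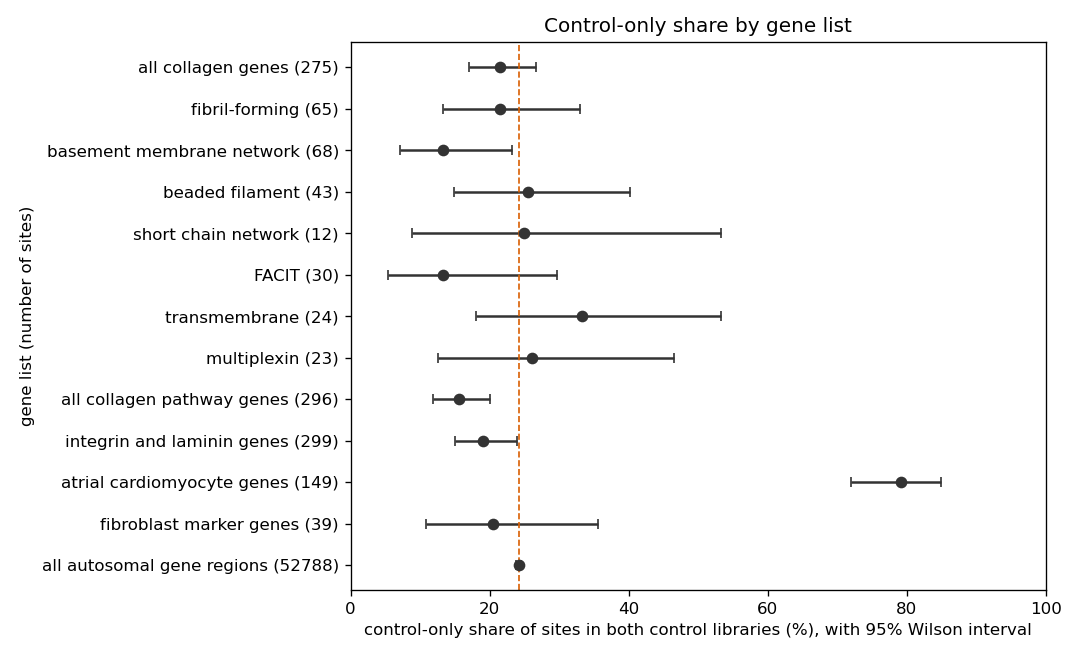
Share of sites in both control libraries that were control-only, in percent with 95% Wilson intervals, for collagen classes of at least 10 sites, for other gene lists and for all autosomal gene regions (dashed line). The number of sites is in brackets. The shorter list of atrial cardiomyocyte markers is not plotted. All collagen genes stand at 21.5%, all gene regions at 24.2% and the atrial cardiomyocyte genes at 79.2%.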

How the data were processed

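CHD4 ChIP-seq peak lists of 4 libraries were used. Per the submitters' processing notes MACS2 and DiffBind were used with build mm10, and per the series design text both ChIP and input reads entered. The aligner is not given in the sources used here. Per peak, the deposited lists hold a fold, which is a ratio of summit pileup to local background, a −log10 p, a −log10 q of at least 1.30 and a score, all from the authors' caller.

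Groups follow the titles. Peaks were merged into sites at an overlap of at least 1 bp. Whole pileup and background were solved from the fold, taken as pileup plus 1 over background plus 1, and the Poisson p. A whole pileup met the listed −log10 p within 0.01 for 100% of peaks of each list, and the solution was tested on simulated data. Genome background is the most frequent local background of a library. The lists give no read totals, so depth is known only through this background. Genes came from RefSeq GRCm38.p6, the assembly behind mm10. Wilson intervals cover counting error only. Python 3.11.15, pandas 2.3.3 and scipy 1.17.1 were used.

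Named were the collagen genes best known in heart, those with the most sites, control-only sites or sites in all 4 libraries, and each with a TBX5 KO-only site. The members and lists were chosen with earlier results of these data known. No genome sequence was used.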

Additional observations from a re-analysis of the deposited data

How the results depend on the processing

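The control-only share of collagen sites was 26.7% at −log10 q of at least 3 (25.1% over all gene regions), 30.4% at 5 (27.0%) and 14.9% with each list cut to its 61173 strongest peaks (13.4%). It lay above the background in these 3 settings and with the groups exchanged, and below it in the other 11. Leaving out 1 library gave 27.7% to 36.5%. In the paired analysis with the replicate number as a block, a site needs a call in 1 control library and none in its same-numbered TBX5 KO library, and the mean of the pairs was 41.6% (46.8% over all gene regions). The TBX5 KO-only share was 8.33% (14 of 168 sites) in lists of equal length and 10.7% (19 of 177) by summits within 250 bp. Over all gene regions it was 5.66% and 8.44% in these settings. Without 1 library it was 4.37% to 12.2% (3.23% to 11.6% over all gene regions), and with the replicate block 13.8% (14.9%). The ratio of levels was 0.660 at −log10 q of at least 5, where weak sites are left out, and 0.678 to 0.734 without 1 library. Replicates were not paired by their numbers, as the deviations of same-numbered libraries had a correlation of -0.0151 over 37678 sites. The ratio of sites per library kept its direction in each setting except exchanged groups. It ran from 0.598 at −log10 q of at least 5 to 0.971 in lists of equal length, where the cut itself brings the counts closer. With the groups exchanged, as the genotype and treatment labels have them, both ratios reversed by construction, to 1.48 for sites and 1.45 for levels, and the control-only and TBX5 KO-only shares were 2.29% and 21.5%. The causes were otherwise not tested. The lists give no read totals, so what depth limits was not tested.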
